A study of Mus musculus with 6 samples.

Results

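The genes described here are Cish and Socs1 to Socs7, the 8 members of the suppressor of cytokine signalling (SOCS) family, read by symbol from a table of 47643 genes. All 8 were in the table and all 8 had enough counts to be tested, among 12760 tested genes. The RNA came from NKT1 cells, a subset of invariant natural killer T (iNKT) cells marked by the transcription factor T-bet, sorted by flow cytometry from thymi of BALB/c mice with a wild-type genotype. The study compared 3 CD4-positive with 3 CD4-negative libraries of these cells, and the labels name no treatment. The labels do not state age, sex or the number of animals behind a library, so p-values measure the spread between libraries, which may be technical in part.

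Cytokines such as IL-2, IL-15, IL-4, IL-12 and the interferons act through receptors that carry JAK kinases, which phosphorylate STAT transcription factors. STATs switch on many genes, among them those of several SOCS proteins, which then dampen the same signal. A SOCS protein binds phosphorylated receptors or kinases through its SH2 domain, and its SOCS box recruits elongins and a cullin to form a ubiquitin ligase. iNKT cells of the NKT1 subset depend on IL-15 for survival, and SOCS1 is known to restrain cytokine responses in developing T cells.

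Levels are given as counts per 1000000 counts of a library (CPM) after TMM scaling, which corrects library totals for composition, and differences as log2 of CD4-positive minus CD4-negative. The totals were 40480468 to 53145898 estimated counts per library. Transcripts of Cd4, the sort marker, followed the labels, with 401 to 508 CPM in CD4-positive and 10.9 to 41.2 CPM in CD4-negative cells. The NKT1 markers Tbx21, Zbtb16, Cd3e and Il2rb were present in each library. CD4-negative replicate 3 stood apart: counts were found for 13787 genes there, compared with 15293 to 16267 elsewhere, and 6.22% of the 9165 genes compared (those with a mean of at least 5 CPM and a transcript in the annotation) lay more than 1 log2 unit below their mean in the other 5 libraries, against 0.164% to 1.21% in those. It and CD4-positive replicate 1 had the lowest mitochondrial shares of counts (1.33% and 1.35%, others 3.51% to 5.19%).

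No SOCS gene passed edgeR's quasi-likelihood test at an adjusted p under 0.05, a threshold that 0.212% of all tested genes passed. DESeq2 and limma-voom also called 0 of the 8. At an unadjusted p under 0.05 there were 2 of 8 by each of the 3 tools, Socs2 and Socs5, where 4.44% of all tested genes passed by edgeR. The same genes were the members whose groups did not overlap: Socs5 was higher in each CD4-positive library (4.84% of all tested genes showed this) and Socs2 was higher in each CD4-negative library (4.57%). The median log2 difference was 0.05 over the 8 members and -0.01 over all tested genes. Cish, Socs1 and Socs3 differed more between single libraries than between the groups: Cish and Socs1 were low in CD4-negative replicate 3, and Socs3 was high in both replicate 1 libraries.

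**Figure D1:**
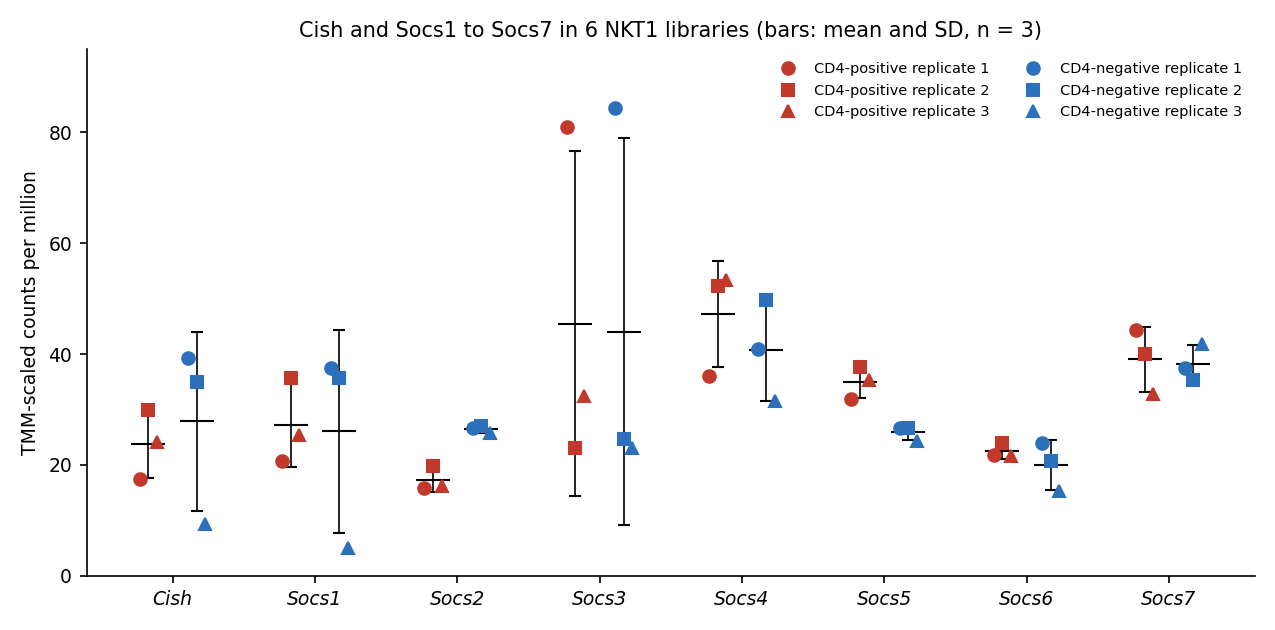
TMM-scaled CPM of each SOCS family gene (vertical axis) in the 3 CD4-positive (red) and 3 CD4-negative (blue) libraries, with symbols for the replicate number and bars for the mean and SD of each group. Socs2 and Socs5 show groups that do not overlap, Socs3 shows 2 replicate 1 libraries above 80 CPM, and Cish and Socs1 have their lowest value in CD4-negative replicate 3.

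Socs2 encodes the member best known for restraining growth hormone signalling, and its gene is also a target of STAT5. Its levels were 15.8, 19.9 and 16.2 CPM in CD4-positive replicates 1, 2 and 3 and 26.7, 27.0 and 25.7 CPM in CD4-negative replicates 1, 2 and 3. Each CD4-positive library lay below each CD4-negative library, and the CD4-negative values spanned less than the CD4-positive ones. The group means were 17.3 ± 2.23 and 26.5 ± 0.68 CPM (SD, n = 3 each), a 1.53-fold lower mean in CD4-positive cells. The log2 difference was -0.61 (SE 0.16, 95% interval -0.99 to -0.24), with an unadjusted p of 0.00561 and an adjusted p of 0.414 by edgeR, so it did not pass over all genes. In order of p Socs2 ranked 173 of the 12760 tested genes. With any single library left out the difference stayed between -0.72 and -0.55 and the unadjusted p between 0.0067 and 0.025. Both replicate 3 libraries carry another naming scheme in the labels than replicates 1 and 2, and with that scheme as a term the difference was -0.62 (adjusted p = 0.429 by edgeR).

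CD4-negative replicate 3, the library in which Cish and Socs1 were lowest, did not stand out for Socs2 (25.7 CPM). Socs2 lies on the minus strand of chromosome 10 (95385362 to 95417180, GRCm38) and none of its counts was fractional. Of 6 tested markers of NK cells and innate lymphoid cells (ILC), 0 passed the test at an adjusted p under 0.05, by edgeR. All 6 had an unadjusted p under 0.05, where 4.44% of all tested genes did. Their sum was higher in the same libraries as Socs2. The 7 markers summed to between 208 and 287 CPM per CD4-positive library and between 952 and 2139 CPM per CD4-negative library. Most of each sum was Gzma, at 201, 109 and 178 CPM in CD4-positive and 1059, 735 and 1935 CPM in CD4-negative replicates 1, 2 and 3. Of the 6 that were tested, Ncr1, Eomes, Klre1, Gzma and Tyrobp were higher in each CD4-negative library (4.57% of all tested genes) and Fcgr3 was higher in each CD4-positive library (4.84%). Klra8 reached at most 0.0193 CPM, a single count. The part of these transcripts in the Socs2 difference was not tested, and in bulk RNA fewer cells of a type cannot be told apart from less RNA per cell. The genes whose profile over the 6 libraries lay nearest to that of Socs2 were Tsc22d1, Tgfa and Swap70, at a root mean square distance of 0.07 to 0.08 log2 units among 9174 genes compared. Tgfa, which encodes transforming growth factor alpha, stood at 31.95 to 36.6 CPM in CD4-positive cells and reached 44.5 to 54.0 CPM in CD4-negative cells.

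Socs5, known for binding JAK1 and for restraining IL-4 and EGF receptor signalling, went the other way. It stood at 31.9, 37.7 and 35.3 CPM in CD4-positive replicates 1, 2 and 3 and at 26.7, 26.7 and 24.3 CPM in CD4-negative replicates 1, 2 and 3. The groups did not overlap, though the gap between the lowest CD4-positive and the highest CD4-negative library was narrower than the CD4-positive range. The means were 35.0 ± 2.87 and 25.9 ± 1.38 CPM (SD, n = 3 each), a 1.35-fold difference. The log2 difference was 0.43 (SE 0.15, 95% interval 0.08 to 0.78), with an unadjusted p of 0.0223 and an adjusted p of 0.804 by edgeR. It stayed between 0.38 and 0.49 with any single library left out, but the unadjusted p then passed 0.05 without CD4-positive replicate 2 (0.0859), CD4-negative replicate 1 (0.0603) or CD4-negative replicate 2 (0.059). Without CD4-positive replicate 1 and CD4-negative replicate 3 together, the difference was 0.45 for Socs5 and -0.57 for Socs2. Without both replicate 1 libraries it was 0.52 for Socs5 and -0.55 for Socs2. The unadjusted p of both genes then passed 0.05 (0.0708 for Socs5 and 0.0689 for Socs2 by edgeR). Socs5 lies on chromosome 17 (87107679 to 87137839, plus strand).

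**Figure D2:**
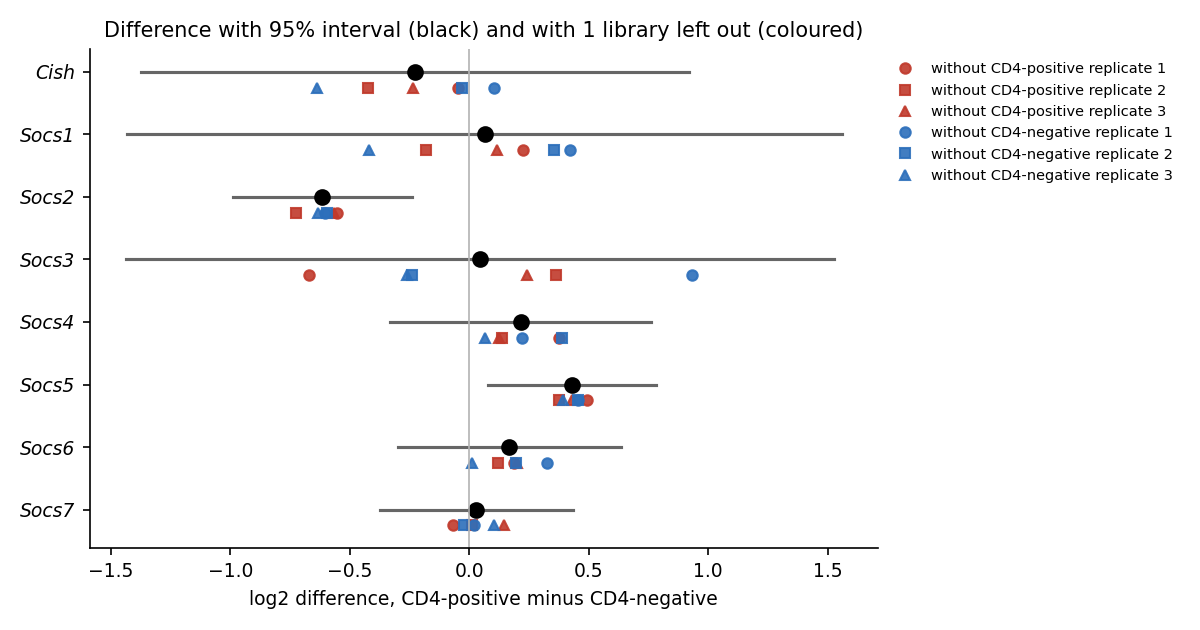
Log2 difference between CD4-positive and CD4-negative libraries for each SOCS family gene, with its 95% interval (black) and the value after leaving out each library in turn (coloured). Only the intervals of Socs2 and Socs5 leave out 0, before any adjustment for the number of genes tested, and the values of Cish, Socs1, Socs3 and Socs7 fall on both sides of 0.

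Cish encodes CIS, a brake on IL-2 and IL-15 signalling in T cells and NK cells whose gene is induced by STAT5. Its levels were 17.4, 29.9 and 24.1 CPM in CD4-positive replicates 1, 2 and 3 and 39.2, 34.9 and 9.37 CPM in CD4-negative replicates 1, 2 and 3. The CD4-negative group held both the highest values and the lowest value, so the groups overlapped. The means were 23.8 ± 6.27 and 27.8 ± 16.1 CPM (SD, n = 3 each), with a log2 difference of -0.23 (95% interval -1.37 to 0.92, adjusted p = 1.0 by edgeR). Without CD4-negative replicate 3 the difference was -0.64, with an unadjusted p of 0.0298 and an adjusted p of 0.683. The 2 libraries lowest in Cish were the 2 with the lowest mitochondrial share. Without both, in a fit added after seeing the data, the difference was -0.45 (unadjusted p = 0.0223, adjusted p = 0.421 by edgeR). Leaving out the lowest values of a gene narrows its spread, so this unadjusted p is no evidence of a difference.

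Socs1 (chromosome 16, 10782240 to 10785536, minus strand), which encodes an inhibitor that acts directly on JAK1, JAK2 and TYK2 and is induced by interferon gamma, followed Cish. It stood at 20.7, 35.7 and 25.4 CPM in CD4-positive replicates 1, 2 and 3 and at 37.5, 35.6 and 4.99 CPM in CD4-negative replicates 1, 2 and 3. The libraries fell in nearly the same order as for Cish, and CD4-negative replicate 3 was again lowest. That library held 191 counts of Socs1, which gives an exact 95% Poisson interval of 4.30 to 5.74 CPM, for counting error only. The means were 27.3 ± 7.68 and 26.1 ± 18.3 CPM (SD, n = 3 each), with a log2 difference of 0.06 (95% interval -1.43 to 1.56, adjusted p = 1.0 by edgeR). Without CD4-negative replicate 3 it was -0.42 (adjusted p = 0.991), and without CD4-positive replicate 2 it was -0.18. An interval this wide holds 2-fold changes in either direction, so no difference of that size was detectable for Socs1.

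The drop in CD4-negative replicate 3 was 6.22-fold for Socs1 and 3.11-fold for Cish, against the mean of the other 5 libraries. Their counts stood in a ratio of Cish to Socs1 of 0.84 to 1.05 in the other 5 libraries and of 1.88 in this one. Genes were also binned into quintiles of transcript GC content. In the quintile of Socs1 the median gene of CD4-negative replicate 3 lay 0.07 log2 units above the other libraries, and Socs1 lay at -2.59, with 0.0546% of its 1832 genes lower. For Cish the values were 0.05 for the quintile and -1.57 for the gene, with 1.58% of 1834 genes lower. The part of the low mitochondrial share and gene number of this library in its low Cish and Socs1 was not tested. Over all 6 libraries Socs1 spanned 2.90 log2 units and Cish 2.06, where the median of 9175 genes with a mean of at least 5 CPM was 0.69 and 0.807% and 2.49% of those genes spanned more.

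**Figure D3:**
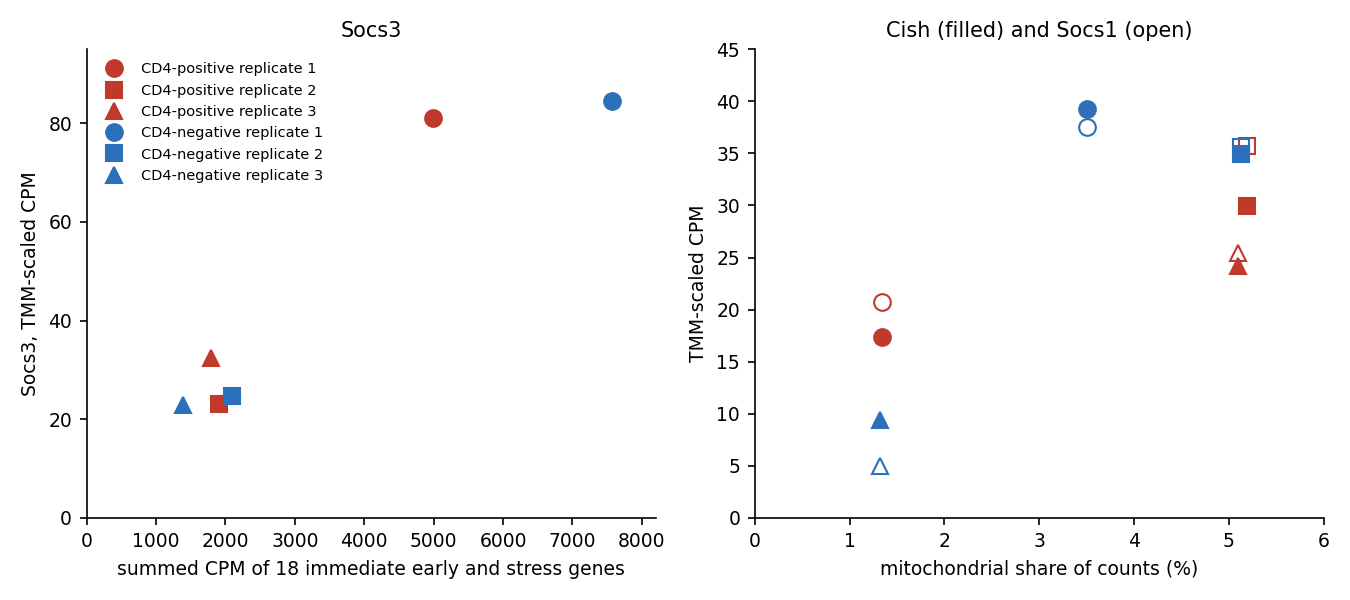
Left, Socs3 in TMM-scaled CPM against the summed CPM of 18 immediate early and stress genes in each library. Right, Cish (filled) and Socs1 (open) against the mitochondrial share of counts. Both replicate 1 libraries lie apart on the left with Socs3 above 80 CPM, and the 2 libraries with a mitochondrial share under 1.4% have the lowest Cish and Socs1 on the right.

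STATs and interferon regulatory factors (IRF) are known to bind short motifs near the start of several SOCS genes. RefSeq promoter windows (GRCm38.p6, 250 bases before to 50 after the annotated start) were scanned for 4 members, Cish, Socs1, Socs3 and Socs4. No window was at hand for Socs2, Socs5 and Socs7, and Socs6 was left out of the scan by choice. The windows of the 3 genes that varied most between libraries are printed 5′ to 3′ on the gene's own strand. Capitals mark matches to the STAT motif TTCNNNGAA, which reads the same on both strands, or to the IRF motif GAAANNGAAA, searched on both strands. The IRF motif was added after the Socs1 window had been read.
Cish, chr9:107296409-107296708, plus strand: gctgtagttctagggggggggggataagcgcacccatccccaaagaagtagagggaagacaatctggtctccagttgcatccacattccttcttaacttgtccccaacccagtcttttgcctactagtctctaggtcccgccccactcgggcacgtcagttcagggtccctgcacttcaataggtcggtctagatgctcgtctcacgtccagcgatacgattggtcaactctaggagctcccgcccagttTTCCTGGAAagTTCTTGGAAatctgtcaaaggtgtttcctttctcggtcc
Socs1, chr16:10785487-10785786, minus strand: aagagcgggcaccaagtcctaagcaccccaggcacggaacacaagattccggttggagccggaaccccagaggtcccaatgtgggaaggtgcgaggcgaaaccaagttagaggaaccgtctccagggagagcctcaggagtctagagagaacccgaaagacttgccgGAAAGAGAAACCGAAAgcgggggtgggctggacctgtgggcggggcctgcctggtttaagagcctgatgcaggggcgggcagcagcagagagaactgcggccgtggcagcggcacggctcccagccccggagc
Socs3, chr11:117969317-117969616, minus strand: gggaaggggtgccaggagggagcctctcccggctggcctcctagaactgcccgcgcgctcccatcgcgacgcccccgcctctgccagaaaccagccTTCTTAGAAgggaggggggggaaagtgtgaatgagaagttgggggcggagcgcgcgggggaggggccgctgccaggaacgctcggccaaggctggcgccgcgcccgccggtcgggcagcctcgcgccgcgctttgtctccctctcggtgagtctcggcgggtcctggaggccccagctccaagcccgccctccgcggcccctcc

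Cish held 2 STAT matches, which begin at bases 1 and 12 from the RefSeq start. For Cish and Socs3 the whole window lies inside the gene bounds given in this text, so motif positions hold for the RefSeq start only. Of 32851 mouse promoter windows of that length, 0.457% held at least 2. Socs3 held 1, at base -154, where 8.30% of windows held at least 1. The window of Socs1 held no STAT match but 2 overlapping IRF matches, at bases -83 and -77, where 3.44% of windows held at least 1 and 0.225% at least 2. Because the IRF motif was chosen after reading this window, these shares do not measure how unusual its matches are. Socs4 held neither motif in its window. These are matches of letters, and binding was not measured in these cells.

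The estimated counts of Cish were fractional in all 6 libraries, unlike those of the other 7 members. An antisense gene annotated on the opposite strand, Gm17041, overlaps Cish (chromosome 9, 107296026 to 107302784, plus strand) over 1459 bases. The counts of Cish and Gm17041 added up to a whole number in 6 of 6 libraries (within 1e-06), and Gm17041 held 2.76% to 8.36% of the sum. Reads from the 2 strands may therefore be mixed in both values, and no label states the strand setting of the counting. The sum stood at 18.6, 31.5 and 24.8 CPM in CD4-positive replicates 1, 2 and 3 and at 42.6, 38.1 and 9.87 CPM in CD4-negative replicates 1, 2 and 3, in the same order as Cish alone.

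Genes nearest to Cish in profile over the 6 libraries were Macf1, which encodes a linker of actin and microtubules, Sntb2, a syntrophin, and Gins2, a subunit of the replicative helicase complex (root mean square distance 0.10 to 0.11 log2 units). Macf1 stood at 128 to 253 CPM in CD4-positive libraries and at 329, 302 and 68.2 CPM in CD4-negative replicates 1, 2 and 3. Those nearest to Socs1 were AW209491, Mbd6 and Fancm, at 0.18 to 0.22 log2 units. Mbd6 stood at 14.3 CPM in CD4-negative replicate 3, below the 44.5 to 77.1 CPM of the other libraries. Cish and Socs1 themselves lay 0.39 log2 units apart, and Socs1 ranked 714 of 9174 genes in nearness to Cish.

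Socs3 (chromosome 11, 117966079 to 117970047, minus strand) encodes the inhibitor of signalling through gp130, the shared receptor chain of IL-6, and is induced rapidly by STAT3. It stood at 81.0, 23.0 and 32.4 CPM in CD4-positive replicates 1, 2 and 3 and at 84.5, 24.7 and 23.0 CPM in CD4-negative replicates 1, 2 and 3. The replicate 1 library was the highest of each group, and the mean of these 2 libraries was 3.21-fold that of the other 4 (82.7 against 25.8 CPM). The group means were 45.5 ± 31.1 and 44.1 ± 35.0 CPM (SD, n = 3 each), with a log2 difference of 0.05 (95% interval -1.44 to 1.53, adjusted p = 1.0 by edgeR). Without CD4-positive replicate 1 the difference was -0.67, without CD4-negative replicate 1 it was 0.93, and without both it was 0.22 (adjusted p = 0.971). Without CD4-negative replicate 2 it was -0.24 and without CD4-negative replicate 3 -0.26.

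Immediate early and stress genes, which cells switch on within minutes of handling or stimulation, were mostly high in the same libraries as Socs3. Of the 18 listed genes 15 were higher in both replicate 1 libraries than in any of the other 4, and Ier3, Btg2 and Dnaja1 were not. The share of all tested genes with this pattern was not determined, and the list was chosen with earlier results known. The count therefore does not measure how unusual the pattern is. Together the 18 summed to 4989 and 7576 CPM in the replicate 1 libraries of CD4-positive and CD4-negative cells, and to 1384 to 2088 CPM in the other 4. Dusp1, a phosphatase of MAP kinases named here after its values were seen, stood at 626 and 850 CPM in the replicate 1 libraries, above the 28.6 to 42.0 CPM of the other 4. Its part in the level of Socs3, or that of any other listed gene, was not tested. The gene nearest to Socs3 in profile was Dusp5, a phosphatase of ERK kinases (distance 0.09 log2 units), with 157 and 164 CPM in the replicate 1 libraries, above the 47.8 to 63.3 CPM of the other 4. Nfkbiz, a regulator of NF-kB target genes, and Frat2, a binder of the kinase GSK3, came next at 0.17 and 0.21. The GC quintile of Socs3 had medians of 0.07 and -0.02 in CD4-positive and CD4-negative replicate 1, against 1.32 and 1.39 for Socs3.

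Socs4, Socs6 and Socs7 belong with Socs5 to the longer SOCS proteins, which are tied more to receptor tyrosine kinase and insulin signalling than to cytokine feedback. Socs4 stood at 36.1, 52.3 and 53.3 CPM in CD4-positive replicates 1, 2 and 3 and at 40.8, 49.7 and 31.5 CPM in CD4-negative replicates 1, 2 and 3. Socs6 stood at 21.9, 23.9 and 21.5 CPM in CD4-positive replicates 1, 2 and 3 and at 24.0, 20.7 and 15.2 CPM in CD4-negative replicates 1, 2 and 3. Socs7 stood at 44.3, 40.04 and 32.7 CPM in CD4-positive replicates 1, 2 and 3 and at 37.5, 35.3 and 41.9 CPM in CD4-negative replicates 1, 2 and 3. They lie on chromosomes 14 (47276931 to 47296102, plus strand), 18 (88665224 to 88927481, minus strand) and 11 (97362551 to 97398542, plus strand). The groups overlapped for all 3 genes, and CD4-negative replicate 3 was the lowest library for Socs4 and Socs6 but not for Socs7. The log2 differences were 0.22 for Socs4 (95% interval -0.33 to 0.76), 0.17 for Socs6 (-0.30 to 0.63) and 0.03 for Socs7 (-0.37 to 0.43), each with an adjusted p of 1.0 by edgeR. These intervals exclude 2-fold differences in either direction, unlike those of Socs1 and Socs3. Socs7 had the narrowest span over libraries of the 8 members, 0.44 log2 units, and 77.6% of genes with a mean of at least 5 CPM spanned more.

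Between genes, levels were compared per kilobase of annotated exon. On this scale Socs3 was highest (15.5 ± 10.2 CPM per kb, SD over 6 libraries), followed by Socs1 (9.17 ± 4.32), Socs4 (6.39 ± 1.33) and Socs7 (5.32 ± 0.59). Socs5 (4.74 ± 0.83), Cish (4.02 ± 1.74), Socs2 (2.30 ± 0.55) and Socs6 (1.87 ± 0.28 CPM per kb) followed. Each gene's range over the libraries overlapped that of its neighbour in this order. Per kilobase of coding sequence the first 3 and the last kept their places, while Cish and Socs2 moved to places 4 and 5, ahead of Socs7 and Socs5.

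Around the SOCS genes, none of the listed kinases, STATs, receptors, ligands or STAT target genes passed the test. The lists were chosen with earlier results of these data known. Of 11 JAK and STAT genes all were tested and none passed at an adjusted p under 0.05 (median log2 difference 0.06, against -0.01 over all tested genes). Jak3, the kinase of the common gamma chain, measured 180 ± 72.0 CPM (CD4-positive) and 136 ± 20.3 CPM (CD4-negative, SD, n = 3 each, as for the means that follow), with a log2 difference of 0.40. Of 20 tested receptor genes of 28 listed, none passed. Il2ra, the high-affinity chain of the IL-2 receptor, stood at 28.2, 40.5 and 43.8 CPM in CD4-positive and at 24.4, 23.6 and 15.5 CPM in CD4-negative replicates 1, 2 and 3 (log2 0.82, unadjusted p = 0.0118, adjusted p = 0.604 by edgeR). Il6ra, the receptor of IL-6, was at 5.74 ± 2.75 and 2.21 ± 1.06 CPM (log2 1.38, adjusted p = 0.885 by edgeR).

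Of 16 listed cytokine ligands, 6 were tested and none passed. Il4 stood at 2.15 ± 0.26 and 0.59 ± 0.20 CPM (log2 1.87, adjusted p = 0.201 by edgeR), and Il13 was under 1 CPM on average in both groups. STAT5 target genes, 14 of 14 tested, had a median log2 difference of -0.14 and no member past the test. Of these Lta, which encodes lymphotoxin alpha, was at 4.42 ± 0.52 and 2.46 ± 0.44 CPM (log2 0.85, adjusted p = 0.591 by edgeR). None of 17 interferon target genes passed (median 0.04). Among them the immune GTPase gene Iigp1 was at 4.64 ± 1.14 and 1.48 ± 0.80 CPM and the guanylate-binding protein gene Gbp6 at 43.0 ± 3.14 and 31.4 ± 4.68 CPM. At an unadjusted p under 0.05 there were 0 of 11 JAK and STAT genes, 2 of 20 receptors, 1 of 6 ligands, 3 of 14 STAT5 targets and 2 of 17 interferon targets, where 4.44% of all tested genes passed. Il2ra counts among both the receptors and the STAT5 targets.

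**Figure D4:**
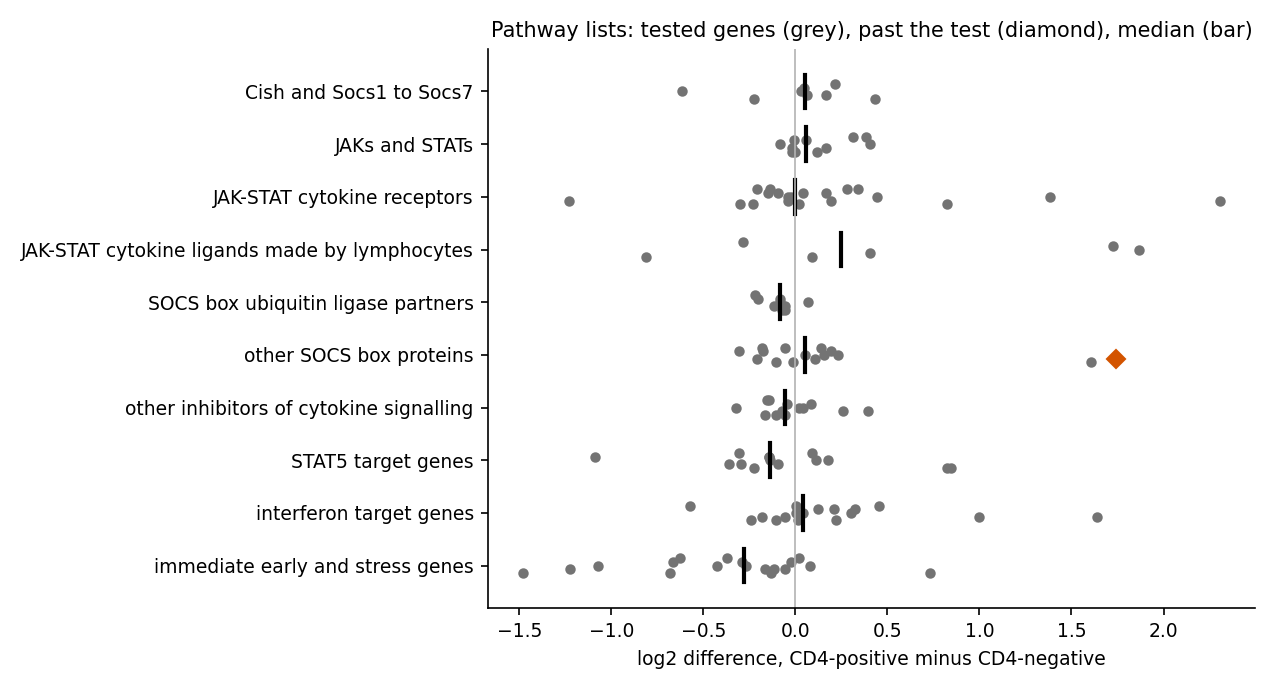
Log2 difference, CD4-positive minus CD4-negative, of each tested gene of the SOCS family and of 9 related lists, with a bar at each list's median. Orange marks the gene past edgeR's test at an adjusted p under 0.05, which is Asb2 among the other SOCS box proteins.

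The ubiquitin ligase partners of the SOCS box did not pass the test in any of 9 cases (median log2 difference -0.08; 0 at an unadjusted p under 0.05). Rbx1, the RING subunit of cullin ligases, stood at 41.0 ± 6.45 and 47.7 ± 14.8 CPM, and the cullin modifier Nedd8 at 94.6 ± 30.2 and 109 ± 45.1 CPM. Other inhibitors of cytokine signalling, such as the phosphatases Ptpn2 and Ptpn6, were all tested, and 0 of 13 passed, with 0 at an unadjusted p under 0.05 (median -0.06). The smallest p among them belonged to the SUMO ligase Pias2 (log2 0.26) and the ubiquitin ligase Cbl (0.39). Of 27 other SOCS box genes 15 were tested and 1 passed, Asb2, where 0.212% of all tested genes did. At an unadjusted p under 0.05 there was also 1 of 15, where 4.44% of all tested genes passed by edgeR. Asb2 encodes an ankyrin-repeat protein that uses the same box to join a cullin ligase. Asb2 stood at 16.2, 19.6 and 23.2 CPM in CD4-positive and at 5.4, 6.6 and 5.6 CPM in CD4-negative replicates 1, 2 and 3 (log2 1.74, SE 0.20, adjusted p = 0.0308 by edgeR). It was the only SOCS box gene of these lists past the test. When any library other than CD4-negative replicate 3 was left out, 0 of all genes passed, Asb2 included.

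Of the immediate early and stress genes none of 18 passed (median log2 difference -0.28). In this list 1 had an unadjusted p under 0.05, where 4.44% of all tested genes did by edgeR. Ier3 was at 3.0 ± 1.54 and 6.32 ± 0.31 CPM (adjusted p = 0.789 by edgeR) and Egr1 at 111 ± 39.4 and 66.7 ± 48.8 CPM. Markers of B cells summed to between 0.482 and 1.47 CPM per CD4-positive and between 2.39 and 3.01 CPM per CD4-negative library, mostly Cd79b (log2 -1.92, adjusted p = 0.255 by edgeR), with Pax5 at 0 in each library, and those of myeloid cells to at most 1.70 CPM, with S100a8 and S100a9 at 0 in each library. Markers of stroma and epithelium summed to at most 5.11 CPM, and those of gamma-delta T cells to between 217 and 273 CPM. Regulatory T cell markers summed to between 29.8 and 44.6 CPM per CD4-positive and between 17.2 and 26.2 CPM per CD4-negative library, nearly all of it Il2ra, while Foxp3 stood at 0.13 to 1.2 CPM. Red cell markers summed to between 273 and 363 CPM per CD4-positive and between 281 and 692 CPM per CD4-negative library. Immature thymocyte markers summed to between 26.1 and 139 CPM per CD4-positive library and between 42.8 and 211 CPM per CD4-negative library. Like the red cell markers, they had their highest sum in CD4-negative replicate 3, the library low in Cish and Socs1. Their next highest sum, 139 CPM, was in CD4-positive replicate 3, where Cish stood at 24.1 and Socs1 at 25.4 CPM. CD4-positive replicate 1, next lowest for both genes, had 74.9 CPM of these markers and the lowest red cell sum (273 CPM). The part of both lists in the low values of Cish and Socs1 was not tested.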

How the data were processed

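The authors deposited expected counts per gene, not normalised, for the 6 libraries. Per the submitters' processing notes, STAR, Picard and RSEM were used with mm10, and no settings are stated. The libraries were made with a stranded mRNA kit and sequenced in paired ends, per the labels' protocols, and the annotation behind the counts is not stated. Columns were matched to samples by library name. Counts were rounded to whole numbers.

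The test was edgeR 4.0.16 in R 4.3.3 (filterByExpr, TMM, robust quasi-likelihood test with group as the only term), with Benjamini-Hochberg adjustment over all 12760 tested genes. SEs and intervals were derived from the F statistic. Other fits used RLE or upper-quartile factors, DESeq2 1.42.0, limma-voom (limma 3.58.1), 2 other filters, a replicate block, a term for the library naming scheme, or 5 of the 6 libraries. Leaving out both replicate 1 libraries, leaving out CD4-positive 1 with CD4-negative 3, the GC quintiles and the coding lengths were added after seeing the data. On simulated counts for this comparison (12594 genes, changed genes at a mean of at least 5 CPM), edgeR recovered 18% of 2-fold and 93% of 4-fold changes, with 5 false among 116 calls. DESeq2 made 20 false among 141 calls. Each gene was drawn with the same dispersion and no library was made to deviate, so these shares may not hold for single members.

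Profiles were compared on log2 CPM (prior count 2), centred per gene. Coordinates, exon lengths and transcript GC content (longest transcript) come from GENCODE M21 on GRCm38, the assembly of mm10. By the naming rule the text gives the 8 members, Cd4, and from each list those past the test or else the 2 with the smallest p, of which 1 is not reported here. To these were added the 3 genes nearest in profile to Cish, Socs1, Socs2 and Socs3. Cell type markers, Gm17041, Dusp1, Btg2, Dnaja1, Ptpn2 and Ptpn6 stand outside that rule and were named with their values known. The members and lists were chosen with earlier results of these data known. Libraries of a group differed by more than sampling noise (chi-square per degree of freedom 55.6 to 400) and all were kept.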

Additional observations from a re-analysis of the deposited data

How the results depend on the processing

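No SOCS gene passed the test under any of the 16 alternatives, and Socs2, Socs4, Socs5 and Socs6 kept their direction in all 16. Leaving out 1 library gave -0.64 to 0.10 for Cish, -0.42 to 0.42 for Socs1, -0.67 to 0.93 for Socs3 and -0.070 to 0.15 for Socs7 (log2 differences), so their directions rested on single libraries. Without both replicate 1 libraries the difference was 0.28 for Cish and -0.083 for Socs7. Without CD4-positive 1 and CD4-negative 3 it was -0.26 for Socs1 and -0.98 for Socs3. The scalings, filters and other tools reversed none of the 8, but limma-voom, the block and the naming-scheme term moved Socs1 from 0.06 to 0.45, 0.43 and 0.46, and Cish from -0.23 to -0.035, -0.030 and -0.0086.

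Over all genes 27 passed, against 164 by DESeq2, 67 with no filter on low counts, 11 with the naming scheme as a batch term, 0 without both replicate 1 libraries, 66 without CD4-positive 1 and CD4-negative 3, and 0 to 44 with 1 library left out (44 without CD4-negative replicate 3, 0 without any of the others). With the replicate block 0 passed. The block gave -0.62 for Socs2 and 0.43 for Socs5 (adjusted p = 0.768 and 1.0 by edgeR). Same-numbered libraries deviated together with correlations of -0.26, 0.71 and -0.10 for numbers 1, 2 and 3 over 9175 genes, and CD4-positive replicate 1 correlated best with CD4-negative replicate 3. Deviations from a group mean are tied to each other within the group, so these correlations cannot decide pairing. The numbers were not taken as pairs in the main fit because the labels name no batch or shared animal. Library names do match between the groups for each number, and Socs3 was high in both replicate 1 libraries, so whether the libraries are paired was not settled. The cause of these shifts was not tested. Coding length from a protein table was not run. Counts of 191 to 3938 per SOCS gene and library gave counting errors of at most 14.2% (95%). Among CD4-negative libraries the SD was 0.68 on 26.5 CPM for Socs2 and 1.38 on 25.9 CPM for Socs5. The 95% half-widths of counting error there were 5.13% to 6.25% for Socs2 and 5.16% to 6.42% for Socs5. Such a half-width is wider than a counting SD, so it is not a like measure to these SDs.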
